A study of Mus musculus with 8 samples.

Results

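The 10 integrin genes described here encode the subunits of the adhesion receptors best known on macrophages (Mϕ): Itgam, Itgax, Itgal and their shared partner Itgb2, Itgav with Itgb5 and Itgb3, and Itga4, Itga5 and Itgb1. They were chosen by gene symbol, all 10 were matched by Ensembl identifier, and they are 10 of the 55359 genes in the table. All 10 passed the filter of a mean of at least 10 normalized counts (read counts divided by the sample's size factor), which left 16309 genes for testing.

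The study asked how the uptake of apoptotic cells (efferocytosis) alters the inflammatory response of Mϕ, and total RNA of 8 samples was sequenced, 2 in each of 4 groups. In all groups, bone marrow-derived Mϕ of adult male and female C57BL/6 wildtype mice were differentiated over 7 days with 20 ng/mL M-CSF and 20 ng/mL GM-CSF. Naïve unstimulated Mϕ (Ctrl) received nothing further. Naïve stimulated Mϕ (LPS) received 100 ng/mL LPS, a bacterial Toll-like receptor agonist, and 100 U/mL murine IFNγ for 6 h. Efferocytic Mϕ (Eff) were cultured from day 6 for 16 h with 5 apoptotic NIH-3T3 cells per Mϕ in 10 nM dimerizer and then washed, and efferocytic stimulated Mϕ (LPSEff) received LPS/IFNγ for 6 h after that. The apoptotic cells were fibroblasts, 1 clone of a line engineered to carry a caspase-8 domain that the dimerizer activates, and CD45+ cells were isolated on magnetic beads before lysis. Neither the dimerizer alone nor living fibroblasts formed a group, so that the dimerizer, the fibroblasts and their uptake cannot be told apart. The sources used here do not say whether samples of a group came from separate mice or cultures, so that p-values measure the spread between these samples, which may be technical.

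Integrins are heterodimers of an α and a β subunit that bind matrix or counter-receptors on other cells, and they switch between a bent resting and an extended active form. The β2 integrins are confined to leukocytes. Itgam, the gene of the α chain CD11b, forms the complement receptor Mac-1 with Itgb2. Itgax, the gene of the α chain CD11c, also pairs with Itgb2. Itgal with Itgb2 forms LFA-1, which binds ICAM molecules. Itgav pairs with Itgb3, Itgb5, Itgb8 and Itgb1 to bind ligands with an RGD motif, among them the bridging protein MFG-E8 that coats apoptotic cells. Itga4 with Itgb1 forms VLA-4, a receptor of VCAM-1 and fibronectin, and Itga5 with Itgb1 is the classical fibronectin receptor.

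The promoters of 4 of the genes are shown because their transcripts went different ways under LPS/IFNγ: Itga4 and Itga5 rose, Itgb5 fell, and Itgam did not pass the test in either direction. The sequences are those of RefSeq (GRCm38.p6), which had an entry for 7 of the 10 genes and none for Itgal, Itgb2 and Itgb3. Each was found once in GRCm39, whose coordinates are given, and is printed 5′ to 3′ on the gene's strand, up to the base before the first annotated base of the gene. Capitals mark each match, on either strand, of the PU.1 core GAGGAA or the Sp1 core GGGCGG that lies whole in the printed part.
Itga4, chr2:79085520-79085659, plus strand: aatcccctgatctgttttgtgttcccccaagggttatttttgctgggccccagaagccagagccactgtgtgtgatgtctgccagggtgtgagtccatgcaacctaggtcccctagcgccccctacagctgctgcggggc
Itga5, chr15:103275271-103275468, minus strand: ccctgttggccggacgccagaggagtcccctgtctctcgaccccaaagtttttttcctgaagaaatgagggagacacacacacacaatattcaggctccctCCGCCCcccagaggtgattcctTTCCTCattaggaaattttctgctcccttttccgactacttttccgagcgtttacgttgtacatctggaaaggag
Itgb5, chr16:33649785-33649987, plus strand: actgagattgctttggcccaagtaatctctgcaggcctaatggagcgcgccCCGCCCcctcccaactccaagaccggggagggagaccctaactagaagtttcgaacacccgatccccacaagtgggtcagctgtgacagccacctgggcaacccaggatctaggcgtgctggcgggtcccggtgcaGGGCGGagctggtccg
Itgam, chr7:127661562-127661807, plus strand: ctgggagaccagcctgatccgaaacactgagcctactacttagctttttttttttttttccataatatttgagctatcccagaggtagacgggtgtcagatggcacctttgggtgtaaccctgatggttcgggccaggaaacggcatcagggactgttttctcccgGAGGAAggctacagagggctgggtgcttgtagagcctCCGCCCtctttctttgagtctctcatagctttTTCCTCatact
Over the whole 250 bases before the RefSeq start, the Sp1 core occurred 3 times at Itgb5, 2 times at Itga5 and 1 time each at Itga4, Itgam and Itgb1, against 32.7% of all 32851 promoters in the table with at least 1 match. The PU.1 core occurred 2 times each at Itgam and Itgav and 1 time each at Itga5 and Itgb1, against 23.3% of all promoters. The RefSeq starts of Itgav and Itgb1 lie 338 and 259 bases past the first annotated base of the gene. Their windows, and the matches in them, are thus wholly inside the annotated gene. The AP-1 letters TGANTCA occurred 1 time, at Itgax (6.75% of all promoters). Neither the IFNγ-response letters TTCNNNGAA (7.02% of all promoters) nor the NF-κB motif (3.90%) occurred in any of the 7 windows. These are matches of letters only, and they do not separate the genes that rose from the one that fell.

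The libraries held between 3481288 reads (Ctrl replicate 1) and 12020918 reads (Ctrl replicate 2) assigned to genes, and the lowest read count behind an integrin value was 46, for Itgb3 in Ctrl replicate 1. Normalized totals were 6587737 to 6951788 in unstimulated and 8470249 to 9489294 in stimulated samples. All 9 macrophage markers examined were at 100 normalized counts or more in every sample, 6 of 7 lymphocyte markers were under 10 in every sample, and 5 of 5 genes checked for the stimulation rose in both contexts. In bulk samples such as these, fewer cells of a type and less RNA per cell cannot be told apart.

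Per kb of the canonical transcript, the scale on which genes can be compared, Itgam and Itgb2 had the highest means in every group. In Ctrl, Itgam stood at 3329 and 4217 and Itgb2 at 3131 and 4117 normalized counts per kb, which overlap. Itgax (582 and 1653) and Itgb1 (806 and 1127) followed and overlapped each other. Next came Itga5 (301 and 307), Itgb5 (275 and 328) and Itgal (182 and 283), where each overlapped its neighbour. Itgav (96.9 and 155) and Itga4 (79.6 and 97.2) overlapped as well, and Itgb3 was lowest, at 15.1 and 58.5 normalized counts per kb, without reaching Itga4. In LPS the order was different below the leading pair. Itgb1 (1580 and 2316) had the next highest mean and overlapped Itgax (525 and 1684), which also overlapped Itga5 (1161 and 1200) and Itgal (865 and 1118), and Itgb5 (88.2 and 111) stood under Itgav and Itga4.

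**Figure D1:**
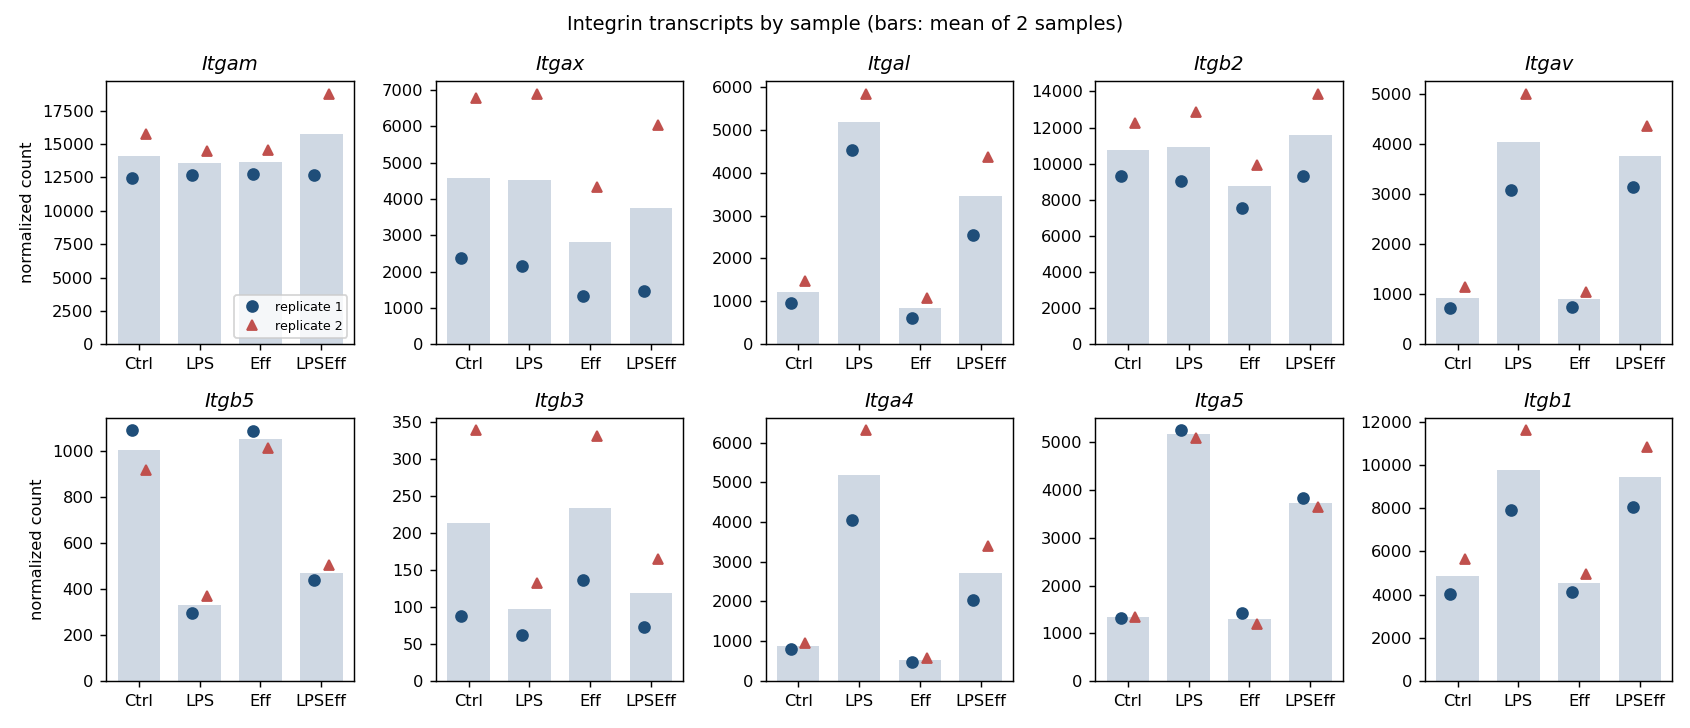
Normalized counts (vertical axis, a scale of its own for each gene) of the 10 integrins in naïve (Ctrl), stimulated (LPS), efferocytic (Eff) and efferocytic stimulated (LPSEff) Mϕ; circles and triangles are replicates 1 and 2, bars their mean. Itgal, Itgav, Itga4, Itga5 and Itgb1 are higher and Itgb5 is lower in both stimulated groups without overlap, while Itgax and Itgb3 differ more between replicates than between groups.

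The question of the comparison of LPS with Ctrl was how naïve Mϕ respond to LPS/IFNγ. Of the 10 integrins, 5 rose and 1 fell at an adjusted p under 0.05, where limma on log2(normalized count + 1) called 12.4% of all tested genes higher and 11.6% lower. In efferocytic Mϕ (LPSEff against Eff), the counts were again 5 higher and 1 lower, against 10.7% and 8.95% of all tested genes. The median log2 change of the 10 integrins was 0.51 in naïve and 0.72 in efferocytic Mϕ, beside -0.01 and 0.01 over all tested genes. With 2 samples a group, an exact two-sided permutation test of a single gene cannot give a p under 0.333. Every call therefore rests on limma's estimate of the spread. It joins a gene's own spread within the 4 groups with that shared across genes.

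Among the β2 integrins, Itgal, the α chain of LFA-1, rose. Its normalized counts were 954 and 1481 (Ctrl), 4524 and 5848 (LPS), 613 and 1080 (Eff) and 2537 and 4376 (LPSEff). Both stimulated groups lay above both unstimulated groups without overlap. The change was 2.11 ± 0.37 (log2, SE, n = 2 per group; 4.32-fold; limma adjusted p = 0.0049) in naïve and 2.03 ± 0.37 (4.09-fold; limma adjusted p = 0.00673) in efferocytic Mϕ. The gene lies on chromosome 7 (ENSMUSG00000030830, 126895432 to 126934320, plus strand, GRCm39).

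Itgam, whose product is the standard surface marker CD11b of myeloid cells, was not called in any comparison. Its values were 12463 and 15789 (Ctrl), 12720 and 14451 (LPS), 12774 and 14524 (Eff) and 12715 and 18792 (LPSEff). All 4 groups overlapped, and the log2 change with LPS/IFNγ was -0.05 in naïve Mϕ (95% interval -0.65 to 0.55; limma adjusted p = 0.92) and 0.18 in efferocytic Mϕ (-0.41 to 0.78; limma adjusted p = 0.691). The count of Itgam is uncertain, because the gene model Gm49368 on the same strand shares 3450 (67.4%) of the 5118 exon bases of Itgam and was itself listed at 10825 to 15374 normalized counts. Itgam lies on chromosome 7 (ENSMUSG00000030786, 127661808 to 127717753, plus strand).

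Itgb2, the β chain that Itgam, Itgax and Itgal share, did not pass the test either. It stood at 9300 and 12229 (Ctrl), 9051 and 12836 (LPS), 7547 and 9928 (Eff) and 9299 and 13883 (LPSEff). The groups overlapped in every comparison. The log2 change with LPS/IFNγ was 0.02 in naïve Mϕ (95% interval -0.67 to 0.70; limma adjusted p = 0.978) and 0.39 in efferocytic Mϕ (-0.29 to 1.08; limma adjusted p = 0.419). Itgb2 lies on chromosome 10 (ENSMUSG00000000290, 77366086 to 77401542, plus strand).

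Itgax, whose product CD11c marks dendritic cells and GM-CSF-grown Mϕ, differed mainly between replicates. Replicate 1 held 2386 (Ctrl), 2150 (LPS), 1317 (Eff) and 1459 (LPSEff) normalized counts, and replicate 2 held 6771, 6898, 4317 and 6035. Replicate 2 was thus 2.84 to 4.14 times replicate 1 in every group, and all groups overlapped. The interval of the change with LPS/IFNγ was accordingly wide, from -2.08 to 1.95 around a log2 change of -0.06 in naïve Mϕ (limma adjusted p = 0.97) and from -1.70 to 2.33 around 0.32 in efferocytic Mϕ (limma adjusted p = 0.85). Itgax lies next to Itgam on chromosome 7 (ENSMUSG00000030789, 127728668 to 127749829, plus strand).

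The α chains that share Itgb2 were also compared as parts of a whole, since each competes for the same partner. Itgal made up 4.45% and 4.60% of the summed counts per kb of Itgam, Itgax and Itgal in Ctrl and 3.04% and 4.02% in Eff. Its share was 18.1% and 16.8% in LPS and 11.4% in both LPSEff samples. The shares in LPS and LPSEff did not overlap each other or those of the unstimulated groups. Itgam nevertheless remained the main chain in every sample, with 57.9% (LPS replicate 2) to 88.6% (Eff replicate 1). The uncertainty of the Itgam count carries over to these shares, and no test was run on them.

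**Figure D2:**
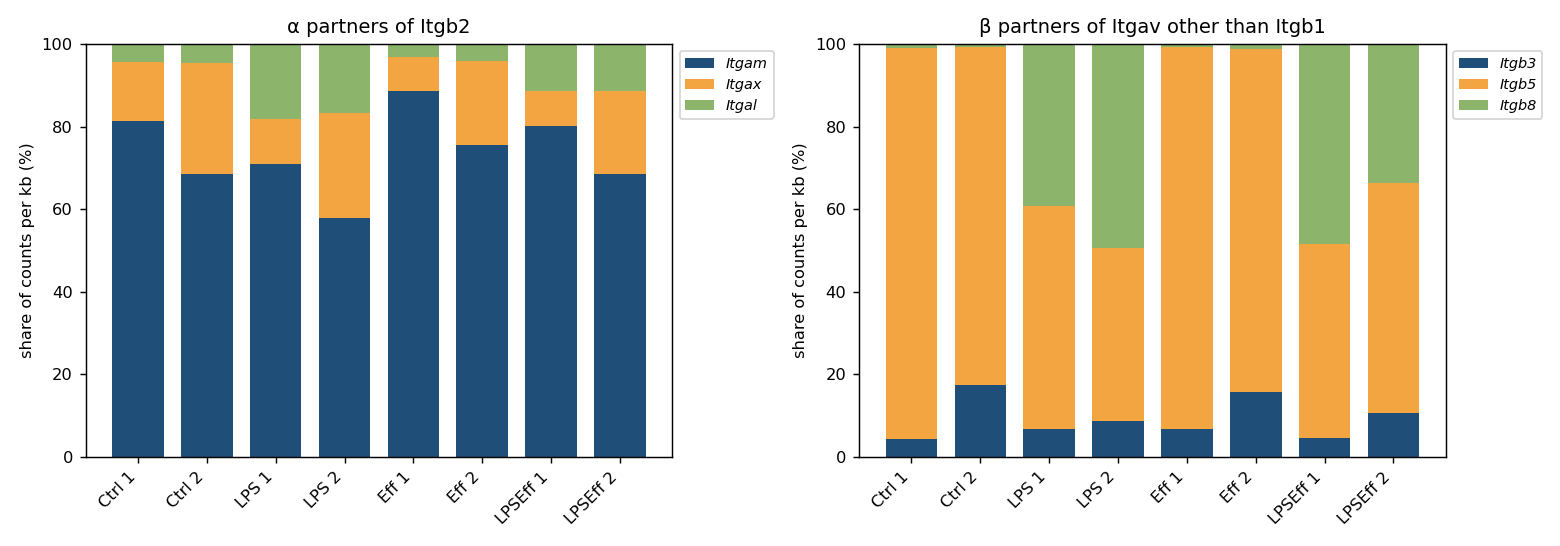
Share of counts per kb of canonical transcript (vertical axis, percent) in each of the 8 samples, for the α chains that pair with Itgb2 (left) and for the β chains Itgb3, Itgb5 and Itgb8 that pair with Itgav (right). On the left Itgal widens from at most 4.60% in unstimulated to 11.4% or more in stimulated samples; on the right Itgb8 goes from at most 1.26% to at least 33.6%.

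In the αv group, the α chain rose and a β chain fell. Itgav was listed at 716 and 1149 in Ctrl and 754 and 1044 in Eff, and at 3091 and 5019 in LPS and 3151 and 4371 in LPSEff. Stimulated samples were all above unstimulated ones, and naïve and efferocytic Mϕ overlapped. The log2 change was 2.12 ± 0.33 (4.34-fold; limma adjusted p = 0.00295) in naïve and 2.06 ± 0.33 (4.18-fold; limma adjusted p = 0.00386) in efferocytic Mϕ. Itgav lies on chromosome 2 (ENSMUSG00000027087, 83554403 to 83637260, plus strand), where the pseudogene Dnmt3l-ps1 and the gene model Gm13684 overlap it on the other strand.

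Itgb5, the partner of Itgav in a vitronectin receptor that takes part in the binding of apoptotic cells, went the other way. It fell from 1091 and 916 in Ctrl to 294 and 369 in LPS, and from 1087 and 1016 in Eff to 439 and 503 in LPSEff. It was the only integrin of the 10 that fell at the threshold, by 1.60 ± 0.20 on the log2 scale (3.03-fold lower; limma adjusted p = 0.000963) in naïve and by 1.16 ± 0.20 (2.23-fold lower; limma adjusted p = 0.00484) in efferocytic Mϕ. Itgb5 lies on chromosome 16 (ENSMUSG00000022817, 33649988 to 33771137, plus strand), with no overlapping gene in the annotation.

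Itgb3, the other classical partner of Itgav and the β chain of the platelet and osteoclast integrins, was the least abundant of the 10. Replicate 1 held 87.6 (Ctrl), 62.1 (LPS), 136 (Eff) and 72.8 (LPSEff) normalized counts, and replicate 2 held 338, 132, 330 and 165. The groups overlapped, and replicate 2 was 2.13 to 3.86 times replicate 1. The log2 change with LPS/IFNγ was -0.92 in naïve (95% interval -2.58 to 0.74; limma adjusted p = 0.413) and -0.94 in efferocytic Mϕ (-2.60 to 0.71; limma adjusted p = 0.423), and neither passed in the fit without a replicate block. Itgb3 lies on chromosome 11 (ENSMUSG00000020689, 104498826 to 104561302, plus strand).

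The β chains that Itgav pairs with were also read together. Itgb8, which with Itgav forms a receptor that releases active TGF-β from its latent complex, was listed at 28.6 and 17.3 (Ctrl), 20.2 and 38.8 (Eff), 537 and 1102 (LPS) and 1146 and 765 (LPSEff). It rose by 5.05 ± 0.45 (log2; 33.1-fold; limma adjusted p = 0.000227) in naïve and 5.01 ± 0.45 (32.3-fold; limma adjusted p = 0.000215) in efferocytic Mϕ. Of the counts per kb of Itgb3, Itgb5 and Itgb8 together, Itgb5 made up 82.0% to 94.6% in the 4 unstimulated and 41.9% to 55.8% in the 4 stimulated samples. The share of Itgb8 was 0.614% to 1.26% in unstimulated and 33.6% to 49.5% in stimulated samples. With Itgb1 and Itgb6 counted as partners too, Itgb1 was the largest in every sample, from 69.8% to 90.6%; it also serves many other α chains. These shares depend on the length set for each gene: with all merged exons in place of the canonical transcript, Itgb5 made up 30.7% to 43.4% and Itgb8 41.4% to 58.1% in stimulated samples.

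In the β1 group, all 3 genes rose. Itga4, the α chain of VLA-4, showed the largest change of the 10 integrins in both contexts. Its values were 792 and 967 (Ctrl), 4042 and 6310 (LPS), 466 and 584 (Eff) and 2046 and 3409 (LPSEff). No group overlapped another: LPS was highest, then LPSEff, Ctrl and Eff. The log2 change with LPS/IFNγ was 2.53 ± 0.31 (5.77-fold; limma adjusted p = 0.000937) in naïve and 2.34 ± 0.31 (5.05-fold; limma adjusted p = 0.00146) in efferocytic Mϕ. Itga4 lies on chromosome 2 (ENSMUSG00000027009, 79085660 to 79163467, plus strand), and Cerkl overlaps it on the other strand.

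Itga5, the α chain of the fibronectin receptor, had the smallest SE of the 10. It stood at 1318 and 1346 (Ctrl), 5256 and 5089 (LPS), 1415 and 1185 (Eff) and 3832 and 3639 (LPSEff). LPS lay above LPSEff, and both lay above the unstimulated groups, which overlapped. The log2 change was 1.96 ± 0.17 (3.88-fold; limma adjusted p = 0.000216) in naïve and 1.53 ± 0.17 (2.88-fold; limma adjusted p = 0.000705) in efferocytic Mϕ. Itga5 lies on chromosome 15 (ENSMUSG00000000555, 103252713 to 103275270, minus strand), with the microRNA gene Mir6963 inside it on the same strand.

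Itgb1, the common partner of Itga4, Itga5 and Itgav, was listed at 4041 and 5647 (Ctrl), 7918 and 11606 (LPS), 4100 and 4952 (Eff) and 8064 and 10848 (LPSEff). Stimulated samples were all above unstimulated ones. It rose by 1.00 ± 0.28 (log2; 2.01-fold; limma adjusted p = 0.0338) in naïve and 1.05 ± 0.28 (2.08-fold; limma adjusted p = 0.0324) in efferocytic Mϕ, with a lower point estimate than its α chains. This call was the least firm of the 6. In naïve Mϕ it was lost without Ctrl replicate 1 (limma adjusted p = 0.191), Ctrl replicate 2 (0.0529), LPS replicate 2 (0.150), Eff replicate 1 (0.0514) or Eff replicate 2 (0.0519). In efferocytic Mϕ it was lost without Eff replicate 1 (limma adjusted p = 0.170), Eff replicate 2 (0.0843), LPSEff replicate 1 (0.0594) or LPSEff replicate 2 (0.158). Itgb1 lies on chromosome 8 (ENSMUSG00000025809, 129411876 to 129460618, plus strand).

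The normalization bears on these calls. When all samples were rescaled to equal totals, the median log2 change of all tested genes moved to -0.40 in naïve and -0.44 in efferocytic Mϕ, and the calls over all genes went from 2015 higher and 1895 lower to 1420 and 4315 in naïve Mϕ and from 1753 and 1460 to 1216 and 4362 in efferocytic Mϕ. Relative to that shift, the calls of Itgal, Itgav, Itga4, Itga5 and Itgb5 held in both contexts. That of Itgb1 did not, with a log2 change of 0.60 in either (limma adjusted p = 0.0811 and 0.0824).

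**Figure D3:**
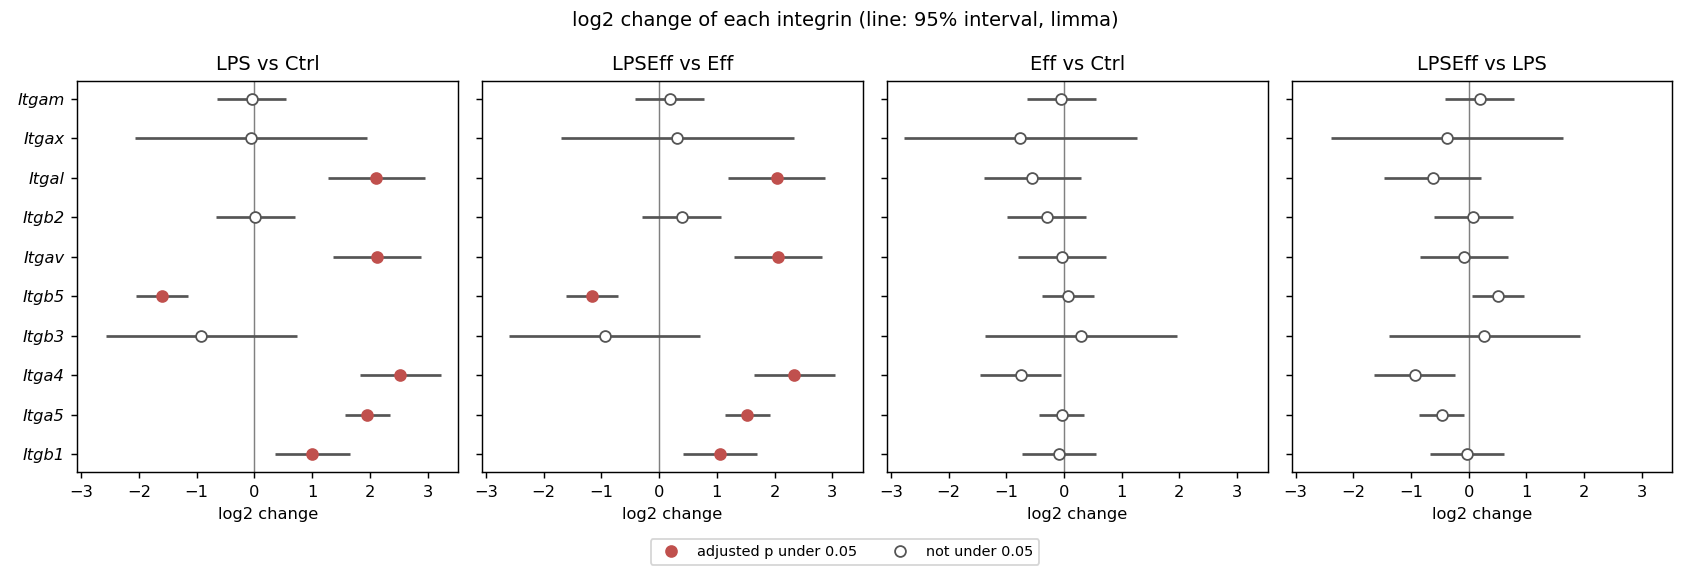
Log2 change of each integrin in the 4 comparisons (horizontal axis, difference of group means of log2(normalized count + 1)). Lines are 95% intervals from limma without a replicate block, and filled points have an adjusted p under 0.05. Itgal, Itgav, Itga4, Itga5 and Itgb1 (higher) and Itgb5 (lower) are filled for LPS/IFNγ in naïve and in efferocytic Mϕ, and no point is filled for the 2 efferocytosis comparisons.

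Efferocytosis alone (Eff against Ctrl) and before stimulation (LPSEff against LPS) addressed what the uptake of apoptotic cells does to Mϕ. In the fit without a replicate block, none of the 10 integrins passed the test in either comparison, where limma called 0.251% and 0.773% of all tested genes, 41 and 126. At an unadjusted limma p under 0.05 there were 1000 and 1679 of the 16309 tested genes, a threshold that some genes pass even where nothing differs. By edgeR and by DESeq2 on the recovered reads, also without the block, none of the 10 integrins was called. The comparisons with Ctrl share their control samples, as do those with LPS and Eff, so the values are given side by side and not counted as separate evidence.

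The α4 chain came nearest. Itga4 was lower in both Eff samples (466 and 584) than in both Ctrl samples (792 and 967), and lower in both LPSEff samples (2046 and 3409) than in both LPS samples (4042 and 6310). Its log2 difference was -0.75 (95% interval -1.45 to -0.04; limma adjusted p = 0.762) in unstimulated and -0.94 (-1.64 to -0.23; limma adjusted p = 0.31) in stimulated Mϕ. Itga5 differed by -0.47 (-0.86 to -0.08; limma adjusted p = 0.381) between LPSEff and LPS without overlap, and by -0.04 (-0.43 to 0.35) between Eff and Ctrl, where the samples overlapped. Itgb5 was higher in both LPSEff samples than in both LPS samples, by 0.51 (0.07 to 0.96; limma adjusted p = 0.407). Itgal was lower in LPSEff than in LPS without overlap, with a log2 difference of -0.63 (-1.47 to 0.22; limma adjusted p = 0.645). The intervals of these differences that leave out 0 are not adjusted for the number of genes. All these values come from the fit without a replicate block. With the replicate number as a block, Itga4 was called lower in both comparisons (limma adjusted p = 0.0271 and 0.00544). So were Itgax in Eff against Ctrl (0.0285) and Itgal in LPSEff against LPS (0.0307). No source says that the replicate number marks a shared preparation.

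For the integrins of phosphatidylserine-dependent uptake, no difference between efferocytic and naïve Mϕ passed the test. The log2 difference of Itgav was -0.03 (95% interval -0.79 to 0.73) between Eff and Ctrl and -0.09 (-0.85 to 0.67) between LPSEff and LPS. That of Itgb5 was 0.07 (-0.38 to 0.52) between Eff and Ctrl, and that of Itgb3 was 0.30 (-1.36 to 1.95), an interval too wide to leave out a change of several fold. Itgam (-0.04, from -0.64 to 0.55), Itgb2 (-0.30, from -0.98 to 0.38) and Itgb1 (-0.08, from -0.73 to 0.56) gave narrower ones in the same comparison, and Itgax (-0.75, from -2.77 to 1.26) the widest.

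Whether the response to LPS/IFNγ differed between efferocytic and naïve Mϕ was tested as an interaction. No gene passed (0% of 16309 called by limma, with 311 at an unadjusted p under 0.05; edgeR and DESeq2 called 0 as well, with 369 and 244). For the integrins the largest interaction terms were 0.44 for Itgb5 (95% interval -0.19 to 1.07) and -0.43 for Itga5 (-0.99 to 0.13), each with a limma adjusted p of 1.00. The fall of Itgb5 was thus 1.60 in naïve and 1.16 in efferocytic Mϕ on the log2 scale, and the rise of Itga5 was 1.96 and 1.53, without a difference that passed the test.

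Replicate 2 was higher than replicate 1 in all 4 groups for 8 of the 10 integrins, against 29.1% (4740) of all tested genes. Itgb5 and Itga5 were the exceptions. The difference was by far the largest for Itgax and Itgb3. Of 7 dendritic cell markers, Flt3, Zbtb46, Dpp4 and Xcr1 were also higher in replicate 2 in all groups, and so were 2 of 9 macrophage markers, Ptprc and Adgre1. The summed level of the dendritic cell markers was 3144 and 3777 (Ctrl), 8748 and 17481 (LPS), 2043 and 2538 (Eff) and 7031 and 7153 (LPSEff). Most of it was 1 gene, Ccr7, with 1839 and 2128 (Ctrl), 7649 and 14409 (LPS), 1151 and 1296 (Eff) and 6243 and 5720 (LPSEff). Kit went the other way, from 983 and 863 in Ctrl to 237 and 269 in LPS, and Clec9a was at most 13.2 in any sample. All 6 dendritic cell markers that were tested had a lower mean in Eff than in Ctrl and in LPSEff than in LPS, none of them past the test. The part of dendritic cells in the values of Itgax, Itgal and Itga4 was not tested. Platelet and megakaryocyte markers, which bear on Itgb3, summed to 30.5 to 249 normalized counts over 6 genes, with Gp9 under 10 in every sample, and 1 of the 6, Itga2b, is also among the other integrin subunits. Neutrophil markers, of a cell type that carries β2 integrins too, summed over 7 genes to 643 to 973 (Ctrl), 1534 to 1745 (LPS), 1058 to 1399 (Eff) and 1612 to 2176 (LPSEff). Of the 5 tested, 2 rose in LPS against Ctrl, 1 in LPSEff against Eff and 1 in Eff against Ctrl, and their part in the integrin values was not tested.

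**Figure D4:**
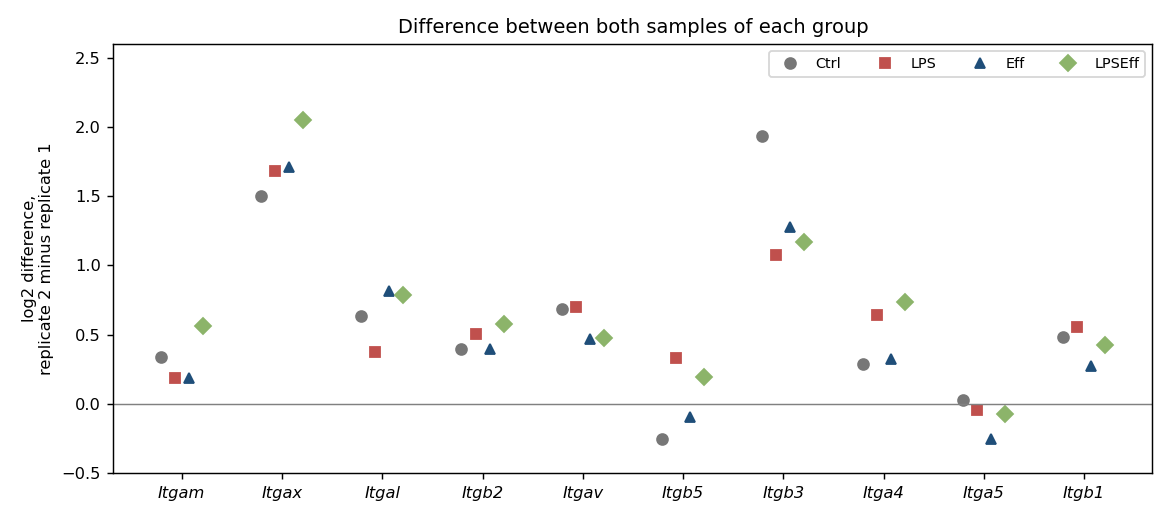
Log2 difference of replicate 2 minus replicate 1 (vertical axis) for each integrin, 1 symbol per group. Itgax and Itgb3 lie above 1 in all 4 groups, 6 other integrins lie above 0 in all 4, and Itgb5 and Itga5 lie on both sides of 0.

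The pattern of each called integrin over the 8 samples was set beside that of every tested gene, as a description (Pearson r of log2 values over the same 8 samples, which share the stimulation). Itga4 was most like Tnfsf4 (r = 0.999) and Icam1 (0.997), Itga5 most like Tnf (0.999) and Gm16573 (0.996), and Itgal most like Dnajb6 (0.994) and Atp2b4 (0.993). For Itgav they were Bfar (0.998) and Katna1 (0.997), for Itgb1 Sppl2a and Xrn2 (both 0.994), and for Itgb5 C1qbp (0.996) and Txlna (0.995).

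The other integrin subunits were counted beside the 10. Of 17 listed, 14 passed the filter, and 2 of these rose with LPS/IFNγ in both contexts and none fell (12.4% higher and 11.6% lower over all tested genes in naïve, 10.7% and 8.95% in efferocytic Mϕ), with a median log2 change of 0.04 in naïve and 0.40 in efferocytic Mϕ. The 2 were Itgb8, above, and Itga9, whose α chain binds tenascin-C and VCAM-1. Itga9 was listed at 5.71 and 1.73 (Ctrl), 12.9 and 21.3 (LPS), 6.13 and 4.23 (Eff) and 25.3 and 33.0 (LPSEff) (limma adjusted p = 0.0446 and 0.0337). At so few reads it lost its call when any of several samples was left out, Ctrl replicate 2, LPS replicates 1 and 2, and both samples of Eff and LPSEff in naïve Mϕ (limma adjusted p 0.0614 to 0.191), and both samples of Eff and of LPSEff in efferocytic Mϕ (0.0972 to 0.162). With equal totals the list had 1 gene higher and 1 lower in naïve Mϕ, beside 1420 higher and 4315 lower of all 16309 tested genes. No subunit of this list passed in either efferocytosis comparison. Itgb7, the other partner of Itga4, did not pass, with 1272 and 1299 (Ctrl), 1045 and 630 (LPS), 1467 and 846 (Eff) and 1266 and 637 (LPSEff). Per kb, Itgb7 made up 24.2% to 40.1% of Itgb1 and Itgb7 in unstimulated and 9.20% to 22.7% in stimulated samples.

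Genes that activate integrins or link them to the cytoskeleton formed the largest list. Of 38 listed, 37 were tested, and 11 rose and 3 fell with LPS/IFNγ in naïve Mϕ, and 7 rose and 2 fell in efferocytic Mϕ, with median log2 changes of 0.33 and 0.18. The shares over all tested genes were 12.4% higher and 11.6% lower in naïve and 10.7% and 8.95% in efferocytic Mϕ. With equal totals these counts were 7 higher and 8 lower, and 5 higher and 10 lower. Of all 16309 tested genes, equal totals gave 1420 higher and 4315 lower, and 1216 higher and 4362 lower. Src, which encodes a kinase of outside-in signalling, rose from 307 and 393 in Ctrl to 2095 and 2042 in LPS (log2 change 2.57 ± 0.23; limma adjusted p = 0.000227) and from 306 and 454 in Eff to 2069 and 2206 in LPSEff (2.52 ± 0.23; limma adjusted p = 0.000231). Zyx, which encodes the focal adhesion protein zyxin, rose by 1.67 ± 0.21 (limma adjusted p = 0.00116) in naïve and 2.00 ± 0.21 (limma adjusted p = 0.000534) in efferocytic Mϕ. The adaptor gene Fyb1 rose by 1.67 ± 0.27 in naïve (limma adjusted p = 0.00345) and 1.83 ± 0.27 in efferocytic Mϕ (limma adjusted p = 0.00264). Rassf5, whose product RAPL carries the Rap1 signal to LFA-1, fell in both contexts, while Itgal rose in the same samples. In naïve Mϕ, Rassf5 was 2.62-fold lower with LPS/IFNγ (limma adjusted p = 0.00474). In efferocytic Mϕ, Rassf5 fell from 493 and 466 in Eff to 81.5 and 129 in LPSEff (4.63-fold lower; limma adjusted p = 0.000591). The difference between the contexts did not pass the interaction test.

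The ligands were read in the same way. Of 18 listed, 15 were tested, and 6 rose and 1 fell in naïve Mϕ, and 5 rose and 1 fell in efferocytic Mϕ (median log2 changes 0.51 and 0.77), beside 12.4% higher and 11.6% lower, and 10.7% and 8.95%, of all tested genes. Vcam1, the cell-surface ligand of VLA-4, went from 15.2 and 15.0 in Ctrl to 234 and 545 in LPS (22.2-fold; limma adjusted p = 0.00129) and from 18.4 and 55.8 in Eff to 399 and 798 in LPSEff (17.0-fold; limma adjusted p = 0.00225). Icam1, the main ligand of LFA-1 and Mac-1, rose in both contexts. Its log2 change was 3.05 ± 0.39 in naïve (limma adjusted p = 0.00114) and 3.04 ± 0.39 in efferocytic Mϕ (limma adjusted p = 0.00126). Its values went from 566 and 638 in Eff to 3408 and 7195 in LPSEff. C3, the source of the iC3b fragment that Mac-1 binds, rose by 2.61 ± 0.28 in naïve (limma adjusted p = 0.000515) and 2.98 ± 0.28 in efferocytic Mϕ (limma adjusted p = 0.000272). Tnc, which encodes tenascin-C, rose 38.9-fold in naïve (limma adjusted p = 0.000175) and 15.3-fold in efferocytic Mϕ (limma adjusted p = 0.000731). In naïve Mϕ the matrix genes Fbn1 (11.9-fold; limma adjusted p = 0.000341) and Thbs1 (8.52-fold; limma adjusted p = 0.0125) rose too. In efferocytic Mϕ, Thbs1 rose 5.47-fold (limma adjusted p = 0.0365), and Fbn1 did not pass (2.10-fold; limma adjusted p = 0.0657). Thbs1 differed widely between samples, with 20342 and 4334 in LPS. Its call in naïve Mϕ was lost without Ctrl replicate 1 (log2 change 3.32) or Ctrl replicate 2 (2.86).

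In the efferocytosis comparisons, 1 of 37 activation and adaptor genes and 2 of 15 ligands were called higher in each, none lower, and 0 of 14 other integrin subunits. Over all tested genes, 0.251% were called in Eff against Ctrl and 0.773% in LPSEff against LPS. Fn1, the gene of fibronectin, was higher in Eff (2902 and 3726) than in Ctrl (986 and 822; limma adjusted p = 0.0436) and in LPSEff (6574 and 4766) than in LPS (1482 and 969; limma adjusted p = 0.0177). Fbn1 rose from 15.2 and 8.10 in Ctrl to 110 and 179 in Eff (limma adjusted p = 0.0125). Edil3, which encodes a secreted αv ligand, rose from 59.5 and 58.9 in LPS to 162 and 264 in LPSEff (limma adjusted p = 0.0418). Parva, the gene of the adaptor α-parvin, was listed at 1.90 and 1.73 in Ctrl and 6.47 and 4.06 in LPS, and at 30.7 and 66.3 in Eff and 54.6 and 76.1 in LPSEff (limma adjusted p = 0.0392 and 0.0363). These were the only calls among the 3 lists in the 2 efferocytosis comparisons. They were not firm. Against Ctrl, leaving out any 1 sample of Ctrl, Eff or LPSEff ended the call of Fn1 (limma adjusted p 0.108 to 0.351) and of Parva (0.0537 to 0.298), and leaving out Ctrl replicate 2 (0.0543) or Eff replicate 2 (0.131) ended that of Fbn1. Against LPS, the call of Fn1 was lost without LPS replicate 2 or either LPSEff sample (0.0907 to 0.171), that of Edil3 without any 1 of the 8 samples (0.0614 to 0.314), and that of Parva without any sample other than Eff replicate 1 (0.0586 to 0.314).

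Most of the tested fibroblast markers were also higher in the efferocytic groups. Their summed level over 15 genes was 179 to 411 in Ctrl, 812 to 918 in LPS, 2132 to 4364 in Eff and 5849 to 6279 in LPSEff. In LPS, Col5a1 held 410 and 305 of it and Pdgfrb 246 and 245. Of the 12 tested, 6 rose in Eff against Ctrl and 7 in LPSEff against LPS, beside 0.251% and 0.773% of all tested genes called. By log2 change, 1 of the 12 was lower in Eff than in Ctrl. In LPSEff against LPS 2 were lower, among them Pdgfrb, at 82.3 and 157 in LPSEff. Lum was under 10 in every sample. The part of fibroblast RNA in the values of Fn1, Fbn1, Edil3 and Parva was not tested. For the integrins that fibroblasts also carry, the log2 differences between Eff and Ctrl were -0.04 for Itga5, -0.08 for Itgb1, -0.03 for Itgav and 0.07 for Itgb5, and those between LPSEff and LPS were -0.47, -0.04, -0.09 and 0.51. The part of fibroblast RNA in these values was not tested either.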

How the data were processed

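Total RNA was depleted of rRNA, libraries were made with a ribosome profiling kit, and single-end reads of 50 cycles were sequenced. The authors used cutadapt for trimming, Bowtie2 to filter out rRNA, STAR to map to mm39 (GRCm39), HTSeq to count and DESeq2 to normalize; versions and the annotation are not given in the sources used here. The deposited values are signal values, normalized counts per gene, that is read counts divided by a size factor per sample. Each column is made of whole multiples of 1 step, so that all values (100%, within 0.01 reads) gave back whole reads. HTSeq was run with default parameters, which count reads on the strand of the gene. Genes were named by Ensembl identifier from GENCODE (54749 of 55359).

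Genes whose mean reached 10 normalized counts were tested with limma 3.58.1 (R 4.3.3, trend) on log2(normalized count + 1), which understates changes of low genes. The 4 group means were fitted to the 8 samples with 4 residual degrees of freedom, and p-values were two-sided with Benjamini-Hochberg adjustment over all tested genes, called under 0.05. Intervals are 95% intervals of the log2 difference and cover only the spread between samples. The scripts were tested on simulated data. Alternatives were pseudocounts of 0.5 and 5, no filter or a minimum of 50, only the groups compared, the replicate number as a block, equal totals, edgeR 4.0.16 (TMM) and DESeq2 1.42.0 on the recovered reads, and each sample left out.

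All 10 integrins are named. From each of 3 lists (other integrin subunits, activation and adaptor genes, ligands) up to 4 called genes with the largest change per comparison are named, and, for each called integrin, the 2 genes most like it. Itgb7 was named after its values were seen, and 1 list gene that the rule names is not reported here. The members, lists and rules were chosen with earlier results of these data known.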

Additional observations from a re-analysis of the deposited data

How the results depend on the processing

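The 12 integrin changes called under LPS/IFNγ (6 genes in 2 contexts) kept their direction under all 17 alternatives, and 192 of the 204 values kept their call. The 12 that lost it were all of Itgb1: with equal totals in both contexts, with only the groups compared in naïve Mϕ (limma adjusted p = 0.0734), and without single samples. Of 438 values of 16 named list genes, 379 kept their call and none changed direction; Itga9, Parva, Thbs1, Fbn1, Fn1 and Edil3 lost 59. With 2 samples per group and no block, an integrin whose replicates differ as widely as those of Itgb3 or Itgax could change by several fold and not pass. Where 1 sample was left out, the lone sample of its group is assumed to vary like the others.

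Same-numbered samples deviated together (r of 0.404 to 0.595 across 16309 genes over the 6 pairs of groups), but no source says that a number marks a shared preparation, and with only 2 numbers this is a hint from the data. With the replicate number as a block (3 residual degrees of freedom), the calls over all genes were 6717 for LPS against Ctrl, 6033 for LPSEff against Eff, 436 for Eff against Ctrl, 1137 for LPSEff against LPS and 0 for the interaction. The block added Itgb3 as lower with LPS/IFNγ (limma adjusted p = 0.0079 in naïve and 0.0077 in efferocytic Mϕ), and 2 integrins each as lower with efferocytosis: Itgax (0.0285) and Itga4 (0.0271) in unstimulated and Itgal (0.0307) and Itga4 (0.00544) in stimulated Mϕ. The other lists also gained calls with it.

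The calls over all genes moved from 3213 to 5578 for LPSEff against Eff with equal totals. For Eff against Ctrl they moved from 41 to 79 with no filter, 20 with a minimum of 50, 9 with only the groups compared, 14 by edgeR and 204 by DESeq2, and for LPSEff against LPS from 126 to 66 with only the groups compared and 368 by DESeq2; the cause was not tested. Without 1 sample they ranged from 2076 to 3562 (LPS against Ctrl), 1567 to 3407 (LPSEff against Eff), 0 to 45 (Eff against Ctrl) and 0 to 84 (LPSEff against LPS), where fits with fewer samples have fewer degrees of freedom. On the recovered reads, edgeR called 3991 genes for LPS against Ctrl, 3509 for LPSEff against Eff and 126 for LPSEff against LPS. The count of 0 came without Eff replicate 2 in Eff against Ctrl, and without LPSEff replicate 1 in LPSEff against LPS.

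Directions turned only for changes that were not called, among them changes of integrins called in another comparison. With equal totals the log2 change was -0.39 for Itgb2 in LPS against Ctrl, -0.27 for Itgam, -0.13 for Itgax and -0.058 for Itgb2 in LPSEff against Eff, and -0.000513 for Itgb1 in the interaction. By DESeq2 it was 0.017 for Itgax in LPS against Ctrl, and the interaction of Itgb3 was 0.19 by edgeR and 0.15 by DESeq2. Without 1 sample, log2 changes in LPS against Ctrl ranged from -0.22 to 0.12 for Itgam, -0.90 to 0.78 for Itgax, -0.24 to 0.27 for Itgb2 and -1.89 to 0.048 for Itgb3. In LPSEff against Eff they ranged from -0.10 to 0.46 for Itgam and -0.71 to 1.34 for Itgax. In Eff against Ctrl they ranged from -0.21 to 0.13 for Itgam, -1.61 to 0.10 for Itgax, -0.37 to 0.31 for Itgav, -0.054 to 0.20 for Itgb5, -0.67 to 1.26 for Itgb3, -0.17 to 0.088 for Itga5 and -0.33 to 0.16 for Itgb1. In LPSEff against LPS they ranged from -0.093 to 0.47 for Itgam, -1.40 to 0.65 for Itgax, -0.21 to 0.37 for Itgb2, -0.44 to 0.26 for Itgav, -0.31 to 0.86 for Itgb3 and -0.31 to 0.24 for Itgb1. The interaction ranged from -0.050 to 0.51 for Itgam, -0.65 to 1.40 for Itgax, -0.49 to 0.33 for Itgal, -0.40 to 0.30 for Itgav, -0.99 to 0.95 for Itgb3, -0.56 to 0.18 for Itga4 and -0.23 to 0.32 for Itgb1.

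Merged exon lengths, an alternative chosen after seeing the data, moved 10 of 32 mean partner shares by more than 1 SD.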
